A study of Mus musculus with 15 samples.

Results

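Platelet-derived growth factor (PDGF) and fibroblast growth factor (FGF) signaling was described here through 10 genes, namely the receptors Pdgfra, Pdgfrb, Fgfr1 and Fgfr2 and the ligands Pdgfa, Pdgfc, Fgf2, Fgf7, Fgf10 and Fgf21. They were taken by gene symbol out of 26301 gene numbers in the count files, 4 from the PDGF system and 6 from the FGF system. All 10 had a row in every library, and 9 had enough reads to be tested. Fgf21 did not.

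The cells were 3T3-L1, a mouse preadipocyte line that turns into fat cells when given insulin, dexamethasone and isobutylmethylxanthine (IBMX), and all 15 libraries were polyA RNA harvested on Day 2 of that treatment. In the first set, cells carrying a retrovirus without a hairpin (sh-Empty, the control) were compared with cells carrying a hairpin against Jmjd1a (sh-Jmjd1a, JMJD1A-KD). JMJD1A, encoded by Kdm3a, is a demethylase of histone H3 lysine 9. In the second set every line carried the sh-Jmjd1a hairpin and in addition expressed LacZ (a bacterial enzyme used as a control), hairpin-resistant wild-type JMJD1A (WT) or the hairpin-resistant mutant JMJD1A(H1122A), which is changed at an iron-binding histidine. Each of the 5 groups was 1 antibiotic-selected cell population with 3 libraries. Nothing states that the 3 were separate cultures, so the p-values measure the spread between these libraries, which may be technical.

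PDGFs and FGFs are secreted growth factors that bind receptor tyrosine kinases on the cell surface. Bound receptors phosphorylate each other, recruit adaptors such as Grb2 and Shc1, and pass the signal through Ras to the MAP kinases, while Sprouty and dual-specificity phosphatases act as brakes. FGFs also need heparan sulfate chains on the cell surface to bind well, and the hormone-like Fgf21 needs the co-receptor Klb. In the adipose lineage Pdgfra and Pdgfrb are known for marking progenitors, Pdgfra binds both PDGF-A and PDGF-C, and Fgf7 and Fgf10 are paracrine ligands of the epithelial splice form of Fgfr2.

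The promoters of the 4 members that were called on knockdown and have a window in the promoter table are shown first. Of these, 2 belong to ligands that rose (Pdgfc and Fgf7), 1 to a ligand that fell (Fgf10) and 1 to a receptor that fell (Fgfr2). Each is the 250 bases before the start that RefSeq lists for the gene, read 5′ to 3′ on the strand of the gene, build GRCm38.p6: Pdgfc at chr3:81036166-81036415 (plus strand), Fgf7 at chr2:126034408-126034657 (plus), Fgf10 at chr13:118714449-118714698 (plus) and Fgfr2 at chr7:130266809-130267058 (minus). Capitals mark a match to any of the 6 motifs searched on both strands, which were the TATA box (TATAAA), the CCAAT box (CCAAT), the GC box (GGGCGG), the cAMP response element (TGACGTCA), the E-box (CACGTG) and the AP-1 site (TGACTCA).
Pdgfc: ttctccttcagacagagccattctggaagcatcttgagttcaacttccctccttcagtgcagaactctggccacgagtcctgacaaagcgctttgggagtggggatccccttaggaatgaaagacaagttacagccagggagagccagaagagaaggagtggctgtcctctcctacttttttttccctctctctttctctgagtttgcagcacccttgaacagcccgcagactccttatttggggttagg
Fgf7: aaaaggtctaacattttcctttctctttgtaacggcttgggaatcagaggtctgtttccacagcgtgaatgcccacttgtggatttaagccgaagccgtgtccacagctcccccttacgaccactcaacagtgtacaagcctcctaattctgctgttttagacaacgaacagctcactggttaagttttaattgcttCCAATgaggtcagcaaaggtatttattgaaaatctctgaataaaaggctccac
Fgf10: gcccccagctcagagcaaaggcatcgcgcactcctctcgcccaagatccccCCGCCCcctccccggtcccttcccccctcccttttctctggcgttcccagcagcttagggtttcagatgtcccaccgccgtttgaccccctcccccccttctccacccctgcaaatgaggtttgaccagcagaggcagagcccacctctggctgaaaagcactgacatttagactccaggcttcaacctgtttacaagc
Fgfr2: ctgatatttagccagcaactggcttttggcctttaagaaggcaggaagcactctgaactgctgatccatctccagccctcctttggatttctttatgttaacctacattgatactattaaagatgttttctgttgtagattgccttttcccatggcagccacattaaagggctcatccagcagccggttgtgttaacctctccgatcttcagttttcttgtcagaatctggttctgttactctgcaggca

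Fgf7 held 1 CCAAT box, which starts 53 bases before the listed start, and 33.8% of 32851 mouse promoter windows of that length held at least 1. Fgf10 held 1 GC box on the opposite strand, 199 bases before the start, a motif found in 32.7% of the windows. The Pdgfc and Fgfr2 windows matched none of the 6 motifs. GC content differed between the windows of the ligands that moved in opposite directions, 43.6% for Fgf7 and 61.2% for Fgf10, against a median of 52.4% over all windows. It did not follow the direction of change, since the Fgfr2 window, of a gene that fell, had 44% and the Pdgfc window, of a gene that rose, 50.8%. Of the other members, Fgf21 had a TATA box 28 bases and an E-box 50 bases before its start, motifs held by 12.4% and 6.02% of windows. A window was found for 8 of the 10 members, and Pdgfrb and Fgfr1 had none. GC boxes also lay in the windows of Fgf21 (3), Fgf2 (1) and Pdgfa, which had more than 1 window (1 and 2 boxes). These matches describe only letters in the windows listed for each gene.

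Library totals ran from 11437058 to 25523148 counts with a median of 12916162. The deepest library, replicate 3 of the WT group, stood well above the next (15561207). Kdm3a, the targeted gene, went the way the labels say. It measured 169 to 183 CPM (read counts relative to the library total, scaled over all 15 libraries) in sh-Empty cells and 127 to 138 CPM in sh-Jmjd1a cells, a log2FC of -0.42 (SE 0.048, adjusted p = 2.91e-08, edgeR quasi-likelihood test). In the second set, where its reads include those of the transgenes, it measured 117 to 122 CPM with LacZ, 1649.9 to 1777 CPM with WT and 2123 to 2303 CPM with H1122A. The mutant transgene was therefore expressed above the wild type (log2FC 0.38, adjusted p = 3.94e-12), and the part of that gap in the differences between the H1122A and WT cells was not tested.

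Markers of the adipocyte lineage moved with the groups too. Of 7 such markers, 6 fell in sh-Jmjd1a cells, the exception being Cebpb, and their summed level was 5379 to 5471 CPM in sh-Empty and 2893 to 3299.7 CPM in sh-Jmjd1a cells. The same count of 6 rose in WT cells against LacZ and fell in H1122A cells against WT, where the sums were 3653 to 3959 CPM (LacZ), 4169 to 4454 CPM (WT) and 2959 to 3002 CPM (H1122A). H1122A cells also had 6 of the 7 lower than LacZ cells. Fibroblast and preadipocyte markers split in sh-Jmjd1a cells. Of 8 tested, 4 were higher (the collagen genes Col1a1, Col1a2 and Col3a1, and Thy1) and 4 lower (Dlk1, Dcn, Lum and Ly6a). The sum over all 9 markers was 10025 to 10181 CPM in sh-Empty and 18019 to 19103 CPM in sh-Jmjd1a cells. Most of that sum was collagen, so it does not show the markers that fell. Of 9 tested in the rescue lines, 3 were higher and 1 lower with WT than with LacZ. With H1122A, 2 were higher and 4 lower than with WT, and 2 higher and 1 lower than with LacZ. Of 5 mural cell markers, 3 were tested and their summed level moved with the rescue lines, at 5.29 to 6.89 CPM with LacZ, 17.5 to 19.5 CPM with WT and 4.18 to 5.36 CPM with H1122A, against 4.34 to 8.45 CPM in the knockdown set. The gap came from Des, which was higher in WT than in LacZ (log2FC 1.85, adjusted p = 5.82e-13) and lower in H1122A than in WT (-2.42, adjusted p = 2.70e-15), while the mural marker Rgs5 was near 0 throughout. On knockdown the 1 mural marker called was Mcam, which fell by 1.32. Markers of endothelial and epithelial cells were all under 1 CPM in every library, and the 3 skeletal muscle markers Myod1, Myog and Pax7 were at 0. The part of these marker shifts in the results for PDGF and FGF genes was not tested. In such bulk libraries, fewer cells of a type and less RNA per cell cannot be told apart.

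Fgfr1 was the member with the most RNA. Per kilobase of merged exon, its mean over the 15 libraries was 333 CPM, followed by Pdgfra at 106, Fgfr2 at 79.2, Fgf10 at 26.9, Pdgfrb at 16.4, Fgf7 at 13.4, Pdgfc at 6.38, Pdgfa at 5.16 and Fgf2 at 1.87 CPM per kilobase. Receptors thus took 4 of the 5 highest places, and Fgf10 was the ligand with the highest level. Fgf21 collected 6 reads in all 15 libraries together. It had 1 read in each sh-Empty library, 1 in WT replicate 1 and 2 in H1122A replicate 2, and was at 0 in the other 10. A count of 0 allows up to 0.118 to 0.262 CPM in those libraries (3 counts of the total, counting error only), so the sh-Empty and sh-Jmjd1a levels of Fgf21 could not be told apart at this depth. Its co-receptor Klb had 0 to 6 reads per library.

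Knockdown of JMJD1A went with higher Pdgfc, Fgf7 and Pdgfrb and with lower Fgf10 and Fgfr2, while Pdgfra, Pdgfa, Fgfr1 and Fgf2 did not pass the test. Thus 5 of 9 tested members were called at an adjusted p under 0.05 (3 higher, 2 lower), or 55.6%, beside 46.2% of all 12272 genes tested (22.3% higher and 23.9% lower). A share so near the background is not a result about the members. The 2 largest member changes were those of Pdgfc and Fgf7.

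Pdgfrb, a receptor for dimers that contain PDGF-B or PDGF-D (mm9 chromosome 18, 61204804 to 61244715, plus strand), stood at 82.8, 80.6 and 77.7 CPM in the sh-Empty libraries and at 97.2, 107 and 98.5 CPM in the sh-Jmjd1a libraries. All 3 knockdown libraries lay above all 3 controls, as in 26.8% of tested genes. The log2FC was 0.32 (SE 0.055, adjusted p = 2.47e-05). Pdgfra, whose ligands include PDGF-A and PDGF-C (chromosome 5, 75548316 to 75594229, plus strand), measured 661, 638 and 646 CPM in sh-Empty cells and 681, 672 and 709 CPM in sh-Jmjd1a cells. Its groups did not overlap either, as was so for 53.2% of tested genes in this comparison, but its log2FC of 0.07 (95% interval -0.00032 to 0.15) did not pass (adjusted p = 0.114). In a fit of all 15 libraries together it did (adjusted p = 0.0482).

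Fgfr2 (chromosome 7, 137306026 to 137410322, minus strand), the receptor whose promoter is printed above, read 491, 465 and 474 CPM in sh-Empty and 390.3, 364 and 393 CPM in sh-Jmjd1a cells, without overlap. It fell by 0.33 on the log2 scale (SE 0.041, adjusted p = 1.19e-07). Fgfr1, its more abundant relative (chromosome 8, 26624126 to 26686186, plus strand), stayed between 1729 and 1784 CPM in sh-Empty cells and between 1761 and 1808 CPM in sh-Jmjd1a cells. Those ranges overlapped, and the log2FC was 0.01 with a 95% interval from -0.052 to 0.080 (adjusted p = 0.766). Per kilobase, Fgfr2 made up 21.5% ± 0.195 (SD, n = 3) of the summed Fgfr1 and Fgfr2 level in sh-Empty and 17.8% ± 0.469 in sh-Jmjd1a cells.

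**Figure D1:**
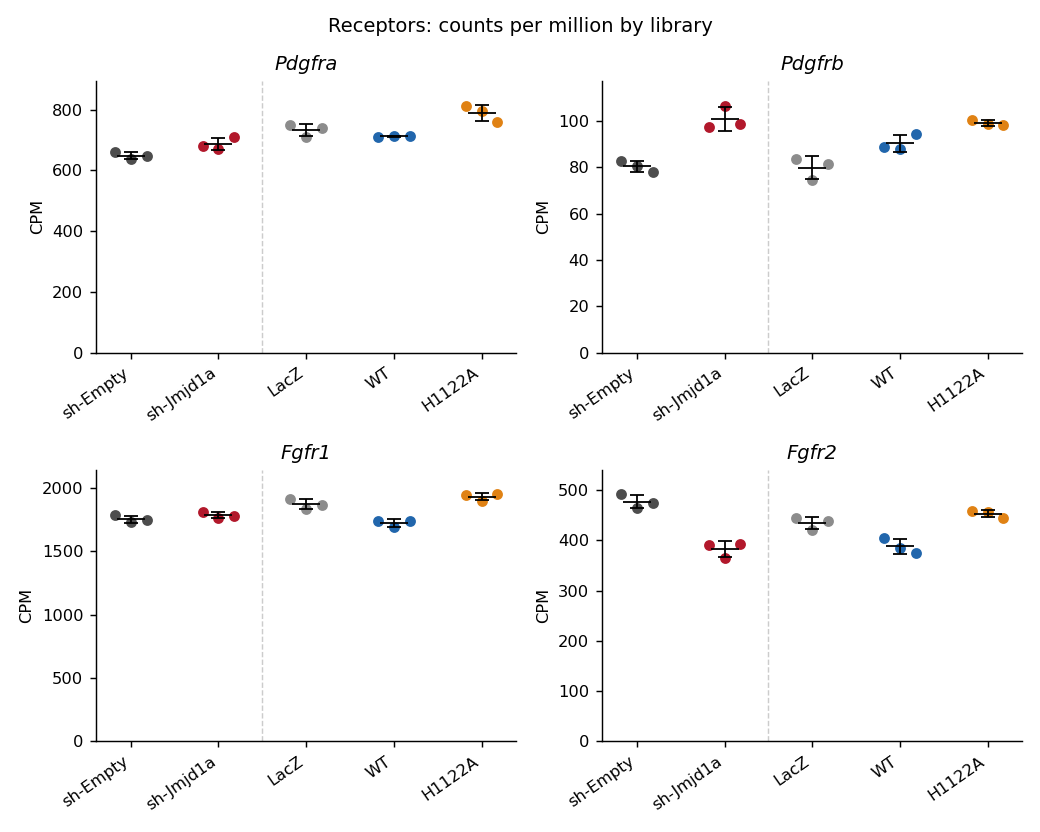
Expression of the 4 receptors in CPM (y axes, from 0) in each library, with points for libraries, long bars for group means and whiskers for 1 SD (n = 3). The dashed line parts the knockdown set from the set of rescue lines. Fgfr2 sits lower in the knockdown than in the control libraries, and lower with WT than with LacZ or H1122A, while Pdgfrb is lowest in sh-Empty and LacZ cells.

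Among the PDGF ligands, Pdgfc (chromosome 3, 80840338 to 81017962, plus strand) read 13.04, 13.5 and 15.7 CPM in the sh-Empty libraries and 27.5, 30.3 and 24.1 CPM in the sh-Jmjd1a libraries. The highest control was well below the lowest knockdown library. The log2FC was 0.93 (SE 0.108, adjusted p = 3.88e-08). Pdgfa, the other PDGF ligand among the members (chromosome 5, 139451968 to 139473324, minus strand), stood at 15.9, 15.9 and 14.8 CPM in sh-Empty and at 14.2, 16.7 and 13.8 CPM in sh-Jmjd1a cells. These overlapped, with a log2FC of -0.07 (95% interval -0.29 to 0.16, adjusted p = 0.677). Pdgfc thus went from 43.1% ± 3.43 to 60.5% ± 1.19 (SD, n = 3) of the summed Pdgfa and Pdgfc level per kilobase.

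Of the FGF ligands, Fgf7, also called keratinocyte growth factor (chromosome 2, 125860394 to 125916921, plus strand), rose in sh-Jmjd1a cells. It stood at 27.4, 28.2 and 31.0 CPM in the sh-Empty and at 52.5, 52.6 and 55.6 CPM in the sh-Jmjd1a libraries, with a log2FC of 0.88 (SE 0.074, adjusted p = 8.35e-11). Fgf10, which binds the same splice form of Fgfr2 (chromosome 13, 119503506 to 119580922, plus strand), went the other way. It stood at 133, 137 and 132 CPM in sh-Empty cells and at 97.0, 84.5 and 92.9 CPM in sh-Jmjd1a cells, and fell by 0.56 on the log2 scale (SE 0.054, adjusted p = 8.90e-10). Neither gene had overlapping groups. Fgf2, basic FGF (chromosome 3, 37247268 to 37304299, plus strand), had 19 to 30 reads per library in this set. Its log2FC of -0.09 had an interval from -0.68 to 0.50, which is too wide to show a change of the size seen in Fgf10.

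Per kilobase, Fgf10 made up 75.6% ± 1.13 (SD, n = 3) of the summed Fgf2, Fgf7 and Fgf10 level in sh-Empty and 54.8% ± 1.73 in sh-Jmjd1a cells, and Fgf7 passed from 21.3% ± 1.33 to 42.0% ± 1.77. The log2 ratio of Fgf7 to Fgf10 counts within a library, which does not depend on library size, was -2.22 ± 0.109 in sh-Empty and -0.77 ± 0.104 in sh-Jmjd1a cells, a difference of 1.45. The ratios of Pdgfa to Pdgfc (difference -1.02), Fgfr1 to Fgfr2 (0.34) and Pdgfra to Pdgfrb (-0.24) also parted the groups. Each of these 4 gave p = 0.1 in a two-sided exact permutation test, the smallest that 3 libraries against 3 allow, and 0.171 after Benjamini-Hochberg adjustment over the 12 ratio comparisons made. The design therefore could not reach 0.05 for any ratio.

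**Figure D2:**
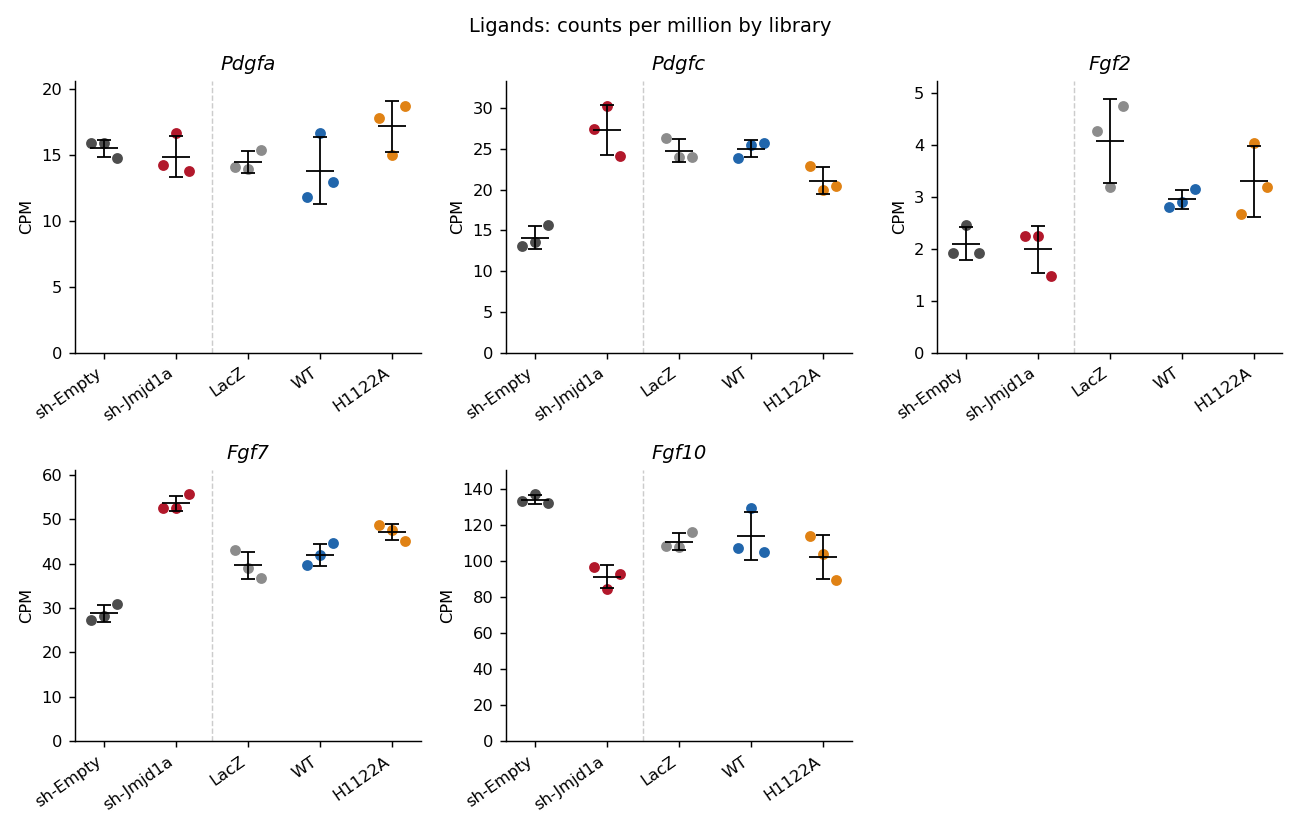
Expression of 5 ligands in CPM (y axes, from 0) in each library, with points for libraries, long bars for group means and whiskers for 1 SD (n = 3). Pdgfc and Fgf7 are lowest and Fgf10 is highest in the 3 sh-Empty libraries.

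Re-expression was read from WT against LacZ, both on the knockdown background. Here 3 of 9 members were called, Pdgfrb higher and Fgfr1 and Fgfr2 lower, or 33.3% beside 9.50% of 12557 genes tested (4.98% higher and 4.52% lower). Pdgfc, Fgf7 and Fgf10, the 3 ligands that changed with the knockdown, did not pass, and the receptors that did pass changed by less than 0.2 on the log2 scale.

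Fgfr2 read 444, 420.0 and 439 CPM with LacZ and 404, 385 and 375 CPM with WT, without overlap, and fell by 0.16 (SE 0.038, adjusted p = 0.00185). The direction was the same as on knockdown. Fgfr1 read 1912, 1833 and 1869 CPM with LacZ and 1741, 1689 and 1742 CPM with WT, also without overlap, and fell by 0.12 (SE 0.031, adjusted p = 0.00912). Of all genes tested in this comparison, 22.9% had groups that did not overlap (11.4% lower with WT). Pdgfrb stood at 83.7, 74.4 and 81.5 CPM with LacZ and at 88.7, 87.7 and 94.4 CPM with WT, a log2FC of 0.18 (SE 0.054, adjusted p = 0.0214). The log2 count ratio of Pdgfra to Pdgfrb was lower by 0.22 with WT, without overlap (p = 0.1 in the exact permutation test, the smallest possible before adjustment, and 0.171 adjusted over 12). The Pdgfrb call rested on single libraries, since it was lost without LacZ replicate 2 (log2FC 0.14, adjusted p = 0.190) and without WT replicate 3 (0.14, adjusted p = 0.209).

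For the ligands the intervals limit how far WT cells could have moved. Fgf7 stood at 42.98, 39.1 and 36.8 CPM with LacZ and at 39.6, 41.9 and 44.6 CPM with WT, and its log2FC of 0.10 had a 95% interval from -0.044 to 0.24. Pdgfc, at 26.4, 24.0 and 24.0 CPM with LacZ and 23.8, 25.5 and 25.8 CPM with WT, had a log2FC of 0.02 with an interval from -0.15 to 0.19. In Fgf10 the values were 109, 108 and 116 CPM with LacZ and 107, 129.5 and 105 CPM with WT, a log2FC of 0.03 with an interval from -0.15 to 0.21. None of the 3 intervals reaches a change as large as that of the knockdown, taken in the opposite direction (0.88, 0.93 and 0.56 on the log2 scale). Fgf2 had its highest mean with LacZ (4.08 ± 0.802 CPM, SD, n = 3) against 2.96 ± 0.180 CPM with WT, a log2FC of -0.44 that did not pass (adjusted p = 0.255).

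Of the 5 members called on knockdown, 2 (Pdgfrb and Fgfr2) were called in the same direction with WT and 3 were not called. Over all 5648 genes called on knockdown and tested in both sets, 11.2% were called in the opposite and 3.75% in the same direction. Those 2 comparisons share no library. The sh-Jmjd1a and LacZ lines carry the same hairpin yet were not at the same level in every member. Fgf7 was 53.6 ± 1.77 CPM in sh-Jmjd1a and 39.6 ± 3.15 CPM in LacZ cells (SD, n = 3), Fgf10 was 91.5 ± 6.34 and 111 ± 4.60 CPM, Pdgfrb was 101 ± 5.04 and 79.8 ± 4.84 CPM, and Fgf2, with few reads, was 1.99 ± 0.452 and 4.08 ± 0.802 CPM. The sets were fitted apart and these differences were not tested.

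The mutant was compared with WT and with LacZ. These comparisons and WT against LacZ share libraries, so their values are given side by side and not as separate support. Against WT, H1122A cells had higher Pdgfra, Fgfr1, Fgfr2 and Pdgfa and lower Pdgfc. That is 5 of 9 members called (55.6%, 4 higher and 1 lower) beside 23.8% of all genes tested (12.1% higher and 11.7% lower). Only the 3 receptor calls held in every alternative fit and with each library left out.

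Fgfr2 read 458, 457 and 444 CPM with H1122A, above all 3 WT libraries (37% of tested genes had no overlap here), and the log2FC was 0.22 (SE 0.038, adjusted p = 1.12e-05). Fgfr1 read 1944, 1898 and 1949.6 CPM with H1122A, likewise above every WT library (log2FC 0.16, SE 0.031, adjusted p = 0.000122). Against LacZ neither passed, with log2FC of 0.06 (95% interval -0.017 to 0.13) and 0.04 (-0.021 to 0.10). In both FGF receptors, then, WT was the lowest of the 3 rescue lines. Pdgfra stood at 813, 796 and 760.0 CPM with H1122A and at 709, 713 and 714 CPM with WT, a log2FC of 0.14 (SE 0.035, adjusted p = 0.00143). Its LacZ libraries, at 750.0, 710.3 and 739 CPM, lay below the mutant too, and that log2FC of 0.10 fell just short (adjusted p = 0.0531). With DESeq2 or all 15 libraries in 1 fit it passed (adjusted p = 0.0497 and 0.0411), as it did without LacZ replicate 1, H1122A replicate 3 or WT replicate 2 (0.0373, 0.0197 and 0.0405).

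Pdgfrb did not pass in the mutant against WT (log2FC 0.12, 95% interval 0.016 to 0.23, adjusted p = 0.0992). All 3 H1122A libraries lay above all 3 WT libraries, and 37% of tested genes had no overlap in that comparison. Pdgfrb was called higher with H1122A than with LacZ. It stood at 100.3, 98.5 and 98.1 CPM with H1122A, a log2FC of 0.30 against LacZ (SE 0.055, adjusted p = 0.000125). Against LacZ, 2 of 9 members were called, both higher (Pdgfrb and Fgf7), or 22.2% beside 9.24% of all genes tested (4.78% higher and 4.46% lower), while 25.3% of tested genes had no overlap. Fgf7 read 48.6, 47.6 and 45.2 CPM with H1122A, above the LacZ and the WT libraries. Its log2FC was 0.25 against LacZ (SE 0.074, adjusted p = 0.0269) and 0.15 against WT (adjusted p = 0.137), and the first call was lost without LacZ replicate 2, LacZ replicate 3, H1122A replicate 1 or H1122A replicate 2 (adjusted p up to 0.171).

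The 2 PDGF ligands were called in opposite directions in the mutant against WT. Pdgfc read 22.9, 19.9 and 20.4 CPM with H1122A, below every WT library, and fell by 0.26 against WT (SE 0.093, adjusted p = 0.0354). Pdgfa did not pass against LacZ (log2FC 0.24, adjusted p = 0.257). It read 17.8, 15.04 and 18.8 CPM with H1122A and 11.8, 16.7 and 12.9 CPM with WT. The log2FC against WT was 0.33 (SE 0.120, adjusted p = 0.0403) although the groups overlapped. Both calls were lost with DESeq2 (adjusted p = 0.0590 and 0.0853) and without any of 4 single libraries each, which were replicates 2 and 3 of both groups for Pdgfc (adjusted p up to 0.166) and replicates 1 and 3 of both groups for Pdgfa (up to 0.191). Pdgfc made up 60.4% ± 3.78 of the summed Pdgfa and Pdgfc level per kilobase with WT and 50.6% ± 2.65 with H1122A (SD, n = 3). The log2 count ratio of Pdgfa to Pdgfc differed by 0.58 and that of Fgf7 to Fgf10 by 0.32. Both had p = 0.1 in the exact permutation test, the smallest possible before adjustment, and 0.171 adjusted over 12. Fgf10, at 114, 104 and 89.6 CPM, did not pass in the mutant (log2FC -0.14 against WT, adjusted p = 0.312), but did with no filter on low counts (0.0461) and without H1122A replicate 1 (log2FC -0.23, adjusted p = 0.0454).

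**Figure D3:**
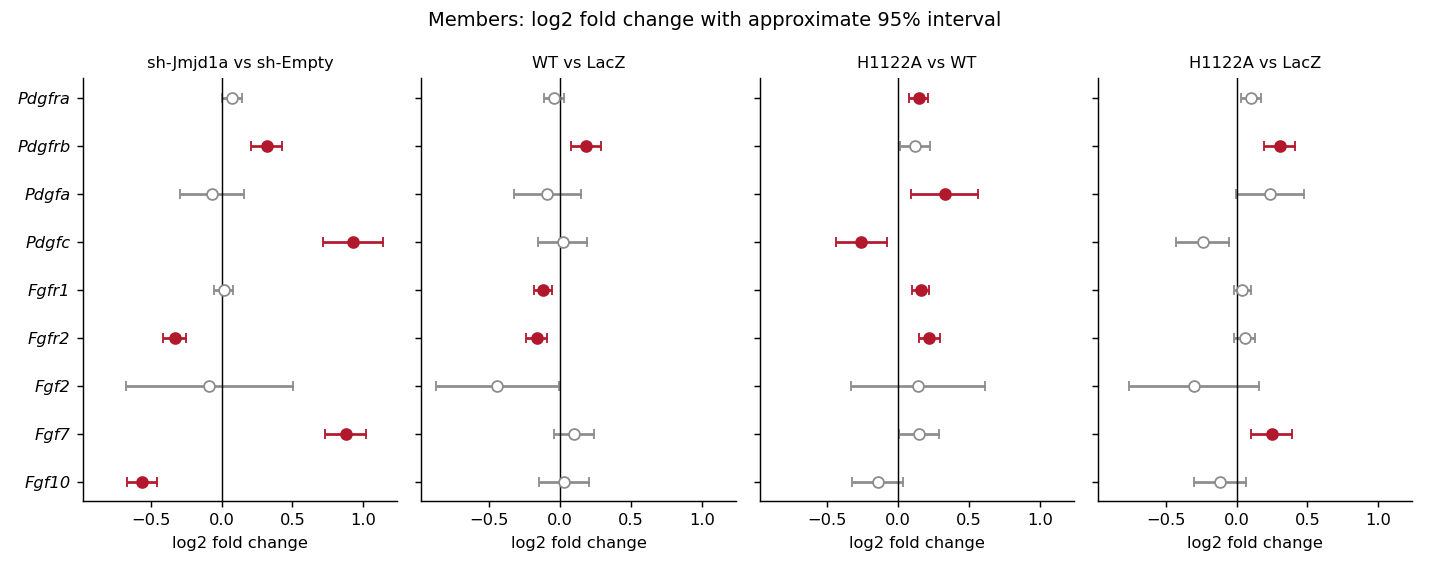
Log2 fold change (x axis) of the 9 tested members in 4 comparisons, with approximate 95% intervals as bars. Filled red points passed an adjusted p of 0.05 and open grey points did not. The knockdown panel holds the widest spread, from -0.56 for Fgf10 to 0.93 for Pdgfc.

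**Figure D4:**
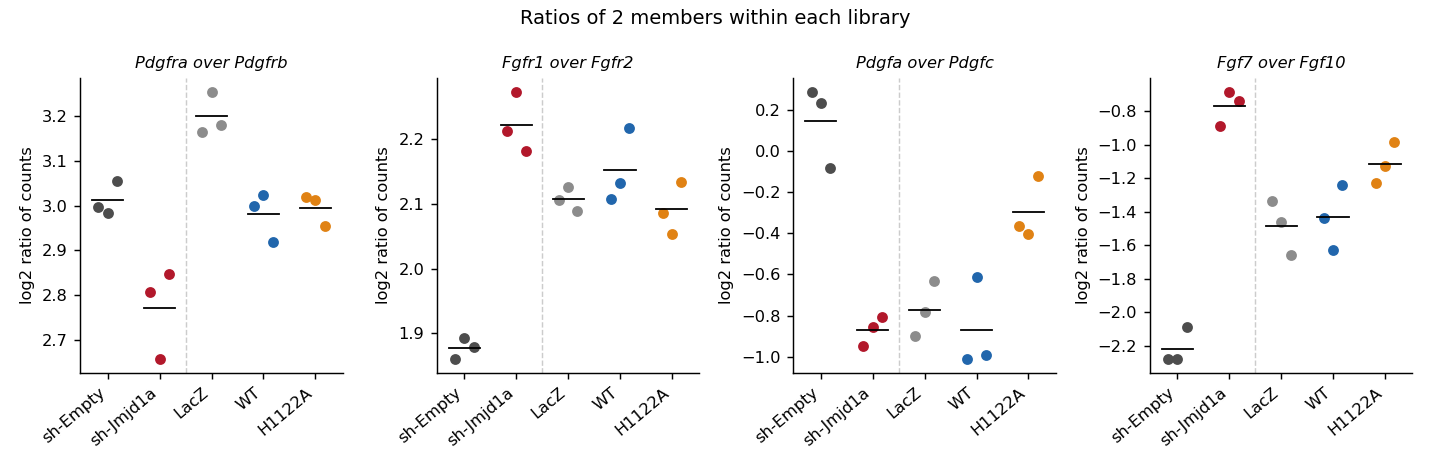
Log2 ratio of the counts of 2 members within each library (y axes) by group, with points for libraries and bars for means (n = 3). The Fgf7 to Fgf10 ratio is lowest in the 3 sh-Empty libraries, and the Pdgfa to Pdgfc ratio is highest there.

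Across the 5 groups the order of the means differed between members. For Fgf10 it was sh-Empty (134 ± 2.61 CPM, SD, n = 3), WT (114 ± 13.5), LacZ (111 ± 4.60), H1122A (102 ± 12.3) and sh-Jmjd1a (91.5 ± 6.34), where each of the 4 lines with the hairpin overlapped with the next and all lay below sh-Empty. For Fgf7 the order began with sh-Jmjd1a (53.6 ± 1.77), H1122A (47.1 ± 1.74), WT (42.1 ± 2.49) and LacZ (39.6 ± 3.15) and ended with sh-Empty (28.8 ± 1.88), and only WT and LacZ overlapped. Pdgfc had its lowest level in sh-Empty as well (14.1 ± 1.40), below H1122A (21.1 ± 1.63) and the overlapping LacZ, WT and sh-Jmjd1a lines. Over the 15 libraries, with each set centred on its own mean, log2 CPM of Fgf7 and Fgf10 had a Pearson r of -0.84, Pdgfc and Fgf7 0.82, Pdgfrb and Fgf7 0.82, and Pdgfra and Fgfr1 0.75. These are descriptions over libraries that share groups, with no test.

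The other genes of both pathways came from 10 lists with 100 genes, of which 71 were tested. On knockdown 23 were higher and 23 lower (64.8%, beside 46.2% of all genes tested), with a median log2FC of 0.06 against -0.0032 over all genes tested. With WT 5 were higher and 9 lower than with LacZ (19.7%, beside 9.50% of all genes tested). With H1122A 20 were higher and 13 lower than with WT (46.5%, beside 23.8%), and 10 higher and 7 lower than with LacZ (23.9%, beside 9.24%). The lists, like the members, were chosen with earlier results of these data known. Their shares are therefore descriptions and no test of the pathways. The shares were not matched for read depth, and the part of depth in them was not tested.

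Among ligands and receptors outside the 10, few had reads. None of the 18 other genes of the FGF family reached the test (4 of them, Fgf11 to Fgf14, encode intracellular FGF homologous factors and no secreted ligand), 8 were at 0 in every library, and the most abundant, Fgf17, had 1 to 12 reads and Fgf14 at most 9. The PDGF ligand gene Pdgfb had at most 5 reads. Fgfr3 fell from 14.8 ± 0.65 to 5.88 ± 0.016 CPM on knockdown (SD, n = 3), a log2FC of -1.34 (SE 0.138, adjusted p = 4.38e-09), and the kinase-less receptor gene Fgfrl1 fell by 0.19 (adjusted p = 0.000997). Pdgfrl, which encodes a PDGF receptor-like protein, rose from 11.1 ± 0.86 to 28.7 ± 0.64 CPM (log2FC 1.36, SE 0.103, adjusted p = 6.78e-12). Fgfr3, Fgfrl1 and Pdgfrl were not called in any comparison between the rescue lines. With LacZ, WT and H1122A, Fgfr3 was at 6.30 ± 0.90, 6.29 ± 0.49 and 7.84 ± 0.64 CPM. Pdgfrl was at 25.7 ± 1.4, 28.3 ± 2.5 and 25.5 ± 0.86 CPM in the same order.

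Co-receptors and heparan sulfate proteoglycans, a list that also includes genes of the FLRT family, were mostly higher in sh-Jmjd1a cells. Of 10 tested, 7 were up and 1 down (80% called, beside 46.2% of all genes tested), with a median log2FC of 0.45. Flrt2, a membrane protein of the FLRT family, rose by 1.77 (adjusted p = 1.78e-17), the syndecan Sdc3 by 1.40 (2.68e-13), the glypican Gpc1 by 0.72 (2.03e-12) and Sdc2 by 0.63 (3.23e-10), all on the log2 scale. Sdc1 was the 1 that fell, by 0.29. Against LacZ, WT cells had lower Sdc4 (-0.29, adjusted p = 3.49e-07), Flrt3 (-0.48) and Sdc2 (-0.23) and higher Gpc1 (0.20), and in the mutant against WT Sdc4 (0.38) and Sdc2 (0.35) were higher and Gpc1 (-0.33) lower. Of 9 tested genes that build or edit heparan sulfate, 4 rose and 2 fell on knockdown (66.7% called, beside the same 46.2%). They were led by the 6-O-sulfotransferase Hs6st1 (log2FC -0.80, adjusted p = 6.72e-14) and the epimerase Glce (0.85, 1.00e-11). Plat, a protease that can activate PDGF-C, rose on knockdown (0.52, adjusted p = 5.66e-05) and was higher in the mutant than in WT (0.51) and in LacZ (0.46). Furin, which cleaves proproteins, fell by 0.12 on knockdown and was higher in the mutant than in WT (0.25).

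Inside the cell, of 14 adaptors and proximal signaling genes 6 were lower, 1 was higher and 7 were not called on knockdown (50% called, near the 46.2% of all genes tested), with a median log2FC of -0.12. Shc1 (-0.32, adjusted p = 1.37e-07), Ptpn11 (-0.26), Grb2 (-0.24) and Crkl (-0.23) were among the lower. The adaptor gene Nck2 was not among them, but was lower in WT than in LacZ (log2FC -0.60, adjusted p = 4.76e-12) and higher in the mutant than in WT (0.71, adjusted p = 6.13e-15), and Nck1 had the same signs (-0.36 and 0.44). In the Ras and MAPK chain 4 of 10 fell and 1 rose on knockdown (also 50% called, near the background). Hras (-0.35) and Araf (-0.17) were among the lower and Nras (0.40) was higher.

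Feedback inhibitors split, with 4 of 12 tested higher and 3 lower on knockdown (58.3% called, beside 46.2% of all genes tested). Spry4, a Sprouty gene, fell from 73.1 ± 1.8 to 28.5 ± 2.0 CPM (log2FC -1.37, SE 0.070, adjusted p = 1.56e-15), the phosphatase gene Dusp4 by 1.14 and Spry1 by 0.48, while the ubiquitin ligase gene Cblb rose by 0.39. With WT, Spry4 was higher than with LacZ (54.2 ± 2.3 against 41.1 ± 2.0 CPM, log2FC 0.39, adjusted p = 3.17e-05). In H1122A cells it was at 24.8 ± 1.2 CPM, lower than in WT (-1.13) and lower than in LacZ (-0.73). Dusp4 was lower in the mutant than in WT (-0.54) but Dusp6, a phosphatase of the MAP kinases, was higher (0.45). Il17rd, an inhibitor of FGF signaling at the membrane, was higher too (0.59).

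Transcription targets that MAP kinases induce also split, 4 of 10 higher and 4 lower on knockdown (80% called, beside 46.2% of all genes tested). The immediate early genes Egr1 and Fos rose by 1.23 and 1.77, while Myc fell by 0.60 and Fosl1 by 0.99. Egr1 was called in all 4 comparisons, at 73.9 ± 5.4 CPM with LacZ, 118 ± 1.3 with WT and 158 ± 5.4 with H1122A (SD, n = 3), against 49.2 ± 3.7 in sh-Empty and 117 ± 16 in sh-Jmjd1a cells. Phlda1 was lower in WT than in LacZ (-0.40) and higher in the mutant than in WT (0.73), and Etv4 had the same signs (-0.81 and 0.96).

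**Figure D5:**
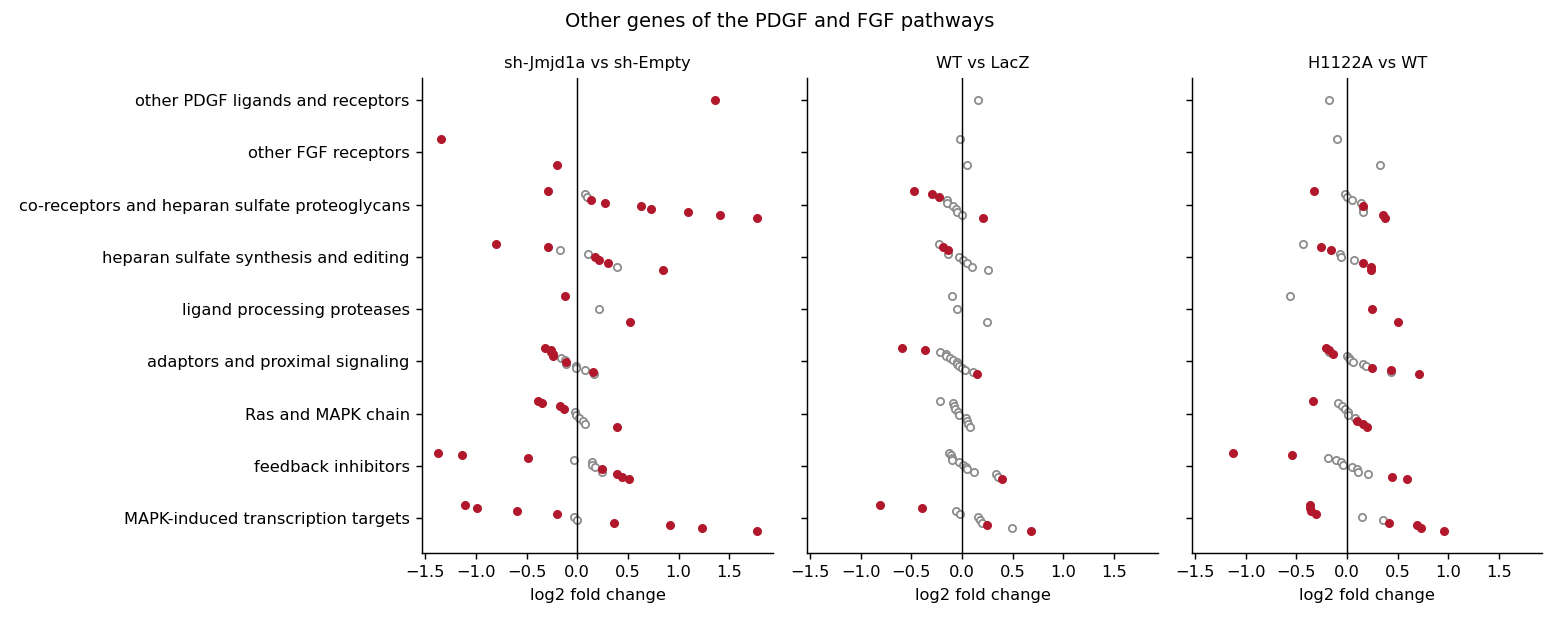
Log2 fold change (x axes) of the 71 tested pathway genes outside the members, 1 point a gene, in rows by list and in panels by comparison. Filled red points passed an adjusted p of 0.05. Points lie mostly right of 0 for the co-receptors in the knockdown panel, while the feedback inhibitors and the transcription targets spread to both sides.

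The genes whose profile was most like each member were sought among 10101 genes with a mean over the 15 libraries of at least 5 CPM, a limit that single groups may lie under, by Pearson r of log2 CPM over 15 libraries with each set centred. Fgf7 was closest to Vdr, the vitamin D receptor gene (r = 0.98), and Hdac7 (0.98). Pdgfc was closest to Elmo1 (0.97), which stood at 3.66 ± 0.402 CPM in sh-Empty and 9.25 ± 1.101 CPM in sh-Jmjd1a cells (SD, n = 3). Fgfr2 was closest to Samhd1 (0.97) and Cdh13 (0.96), Fgfr1 to Mrc2 (0.96) and Pik3r2 (0.94), Pdgfra to Ddhd1 (0.94) and Denn2b (0.94), and Pdgfrb to Egr1 (0.94) and Arap1 (0.93). Fgf10 was closest to 2310061I04Rik and Emc6 (both 0.94). For Pdgfa and Fgf2, which vary little beyond their replicate spread or have few reads, the highest r was 0.87 (1110004F10Rik) and 0.80 (Galnt1). Such r values are the highest out of many genes and are given as descriptions only.

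Exons of 5 members overlap a gene on the other strand in the mouse annotation used (GENCODE M1 on mm9), namely Pdgfa (813 bases), Fgf2 (242 bases, with Nudt6), Pdgfc (147), Fgfr1 (125) and Fgf10 (69). Of these partners Nudt6 has a row in the count files, with 82 to 193 reads per library against 19 to 81 for Fgf2. Whether strand was used in counting is not given in the sources used here, so reads from the shared bases cannot be assigned.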

How the data were processed

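PolyA RNA from 15 3T3-L1 samples (5 groups of 3) was sequenced in paired ends. Per the labels and the methods of the study, fastp (trimming), HISAT2 (alignment to mm9) and featureCounts (counting per gene) were run by the authors, who deposited raw counts under numeric gene IDs. The annotation release and strand setting are not given in the sources used here. Of 26301 IDs, 24191 were matched to a symbol. Exon lengths and positions came from GENCODE M1 on NCBIM37 (mm9), promoters from RefSeq on GRCm38.p6.

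Counts were tested with edgeR 4.0.16 in R 4.3.3 (TMM, filterByExpr with a minimum count of 10, robust quasi-likelihood test without the older method, Benjamini-Hochberg adjustment over all genes tested, threshold 0.05), with 1 fit for the 6 libraries of the knockdown and another for the 9 of the rescue lines. CPM values were scaled by TMM over all 15 libraries, and 95% intervals are the log2FC plus or minus a normal quantile of its SE. The script was tested on simulated data. Log2 ratios of counts (0.5 added) were tested by exact permutation. Totals of 11437058 to 25523148 counts set the precision.

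The members and gene lists were chosen with earlier results of these data known. Named were the 10 members, Kdm3a, for each list and comparison at most the 4 genes of smallest adjusted p among those called (the 2 most abundant where none was tested), markers as counts and ranges, and the 2 genes most like each member. A few genes that this rule names are not reported here. Further genes given in the text beyond that rule (Sdc1, Klb, Pdgfb, Etv4 in the mutant, Nudt6 and single markers) were named for completeness after their values were seen. Deviations of same-numbered libraries of different groups were at most weakly correlated (r from -0.054 to 0.060 over 12 pairs), and the numbers were not taken as pairs. In 15 of 24 cases, though, a library was closest to its own number in another group. A fit with a replicate block is therefore given below. Alternatives were DESeq2 1.42.0, RLE size factors, other filters, the older and the non-robust edgeR fits, 1 fit of all libraries or of 2 groups, a replicate block, a threshold of 0.01 and leaving out each library.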

Additional observations from a re-analysis of the deposited data

How the results depend on the processing

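Of 15 member calls in 4 comparisons, 11 were kept in every alternative fit and with each library left out, and no called member changed sign. At an adjusted p under 0.01 the members called in H1122A against WT were 3 (5 as reported), beside 1995 of 12557 genes tested (2985 as reported). In H1122A against LacZ 1 member was called (2 as reported), beside 576 genes (1160 as reported). With WT against LacZ the Pdgfrb call was lost, and 733 genes were called (1193 as reported). The pathway genes called were 9 with WT against LacZ (14 as reported) and 9 with H1122A against LacZ (17 as reported). DESeq2 called 3 members in H1122A against WT, beside 2616 of 12557 genes tested. With 1 library left out, 2334 to 3169 genes were called in that comparison. Leaving out 1 library gave 3 to 5 members in H1122A against WT (3 without H1122A replicate 3 or WT replicate 3) and 1 to 3 against LacZ (1 without LacZ replicate 2 or 3 or H1122A replicate 1 or 2), 9 to 15 pathway genes with WT against LacZ (9 without LacZ replicate 2) and 9 to 18 in H1122A against LacZ (9 without H1122A replicate 1, 11 without LacZ replicate 3 or H1122A replicate 3), and 674 to 1256 genes in all in the last comparison (674 without H1122A replicate 1, 764 without LacZ replicate 3). Signs that turned on 1 library belonged to values that had not passed: on knockdown the log2FC of Pdgfa (-0.15 to 0.0030) and Fgf2 (-0.19 to 0.11), with WT that of Pdgfc (-0.012 to 0.066), Fgf10 (-0.061 to 0.090) and the Fgf7 to Fgf10 ratio (-0.044 to 0.15), and in H1122A against WT that of Fgf2 (-0.041 to 0.28) and the Pdgfra to Pdgfrb ratio (-0.0164 to 0.037). In each case the cause was not tested. A replicate block, for libraries that share only a number, gave 5425 genes on knockdown (5672 as reported), 1393 with WT (1193 as reported), 3283 (2985 as reported) and 1413 (1160 as reported), with Pdgfra passing in H1122A against LacZ (adjusted p = 0.0208). In 15 of 24 cases a library correlated best with its own number among the 3 of another group, more often than random matching would give on average. The cases take each pair of groups from both sides, so they are not independent, and no test of that count was run. Depth limits Fgf21 and Fgf2, the latter with 19 to 81 reads.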
